A study of Homo sapiens with 24 samples.

Results

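The transcripts described here encode the axon guidance ligands and receptors of the Eph/ephrin, semaphorin/plexin/neuropilin, Slit/Robo and netrin/UNC5 families, and what was measured is where they carried N6-methyladenosine (m6A) peaks as human pluripotent stem cells became pancreatic cells. The members were the protein-coding genes of the GENCODE annotation whose symbols belong to these families, and a peak was a member's where its deposited gene identifier included such a gene. The annotation held 69 of them among 20046 protein-coding genes. One of the 69, the readthrough gene EFNA4-EFNA3, was named by 16 peaks, all of which also named EFNA3 or EFNA4, so the counts below run over the other 68 genes. These were 14 Eph receptors, 8 ephrins, 20 semaphorins, 9 plexins, 2 neuropilins, 3 Slits, 4 Robos, 4 netrins and 4 UNC5 receptors. They carried 1021 of the 228472 peaks in 6 lists, and 30 of these peaks named more than 1 gene.

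m6A-seq precipitates fragmented RNA with an antibody against m6A and sequences it (IP) next to unselected RNA (input), and methylated stretches stand out as peaks of IP over input. All cells came from the human embryonic stem cell line MEL1, per the study's methods its INSGFP/W derivative, in which one insulin allele carries a GFP reporter, so the controls and the edited line share this allele. The first batch followed 4 stages of pancreatic differentiation in culture, namely pluripotent stem cells kept on CF1 feeder cells (hPSC), the definitive endoderm made from them (DE), the pancreatic progenitors that follow (PP) and finally islet-like organoids (hILO), with mRNA and a SYSY antibody. The second batch held PP differentiated from unedited cells (WT PP) and from a CRISPR-Cpf1 line that lacks ALKBH5, an m6A demethylase (A5-KO PP), with total RNA, a Millipore antibody, another library kit and an input depleted of rRNA. Each population had 2 IP and 2 input libraries, but each list of peaks gave reads pooled over them. There was therefore no replicate check of any value below, and no test between populations was made. A value written with ± is the log2 enrichment of IP over input that the authors deposited, or the difference of such values, with its counting error from the IP and input reads on the log2 scale, and intervals in parentheses are 95% intervals for counting error only. A series of 6 values runs from hPSC, DE, PP and hILO to WT PP and then A5-KO PP, and a series of 4 covers the stages of the first batch in that order.

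Eph receptors are tyrosine kinases that bind ephrins on the neighbouring cell, and both partners can signal. Semaphorins are secreted (class 3) or membrane-bound (classes 4 to 7) and bind plexins, with neuropilins as co-receptors for most class 3 members, while Slits bind Robos and netrins bind DCC and the UNC5 receptors. Outside the nervous system these molecules are known for sorting cells at tissue boundaries, branching of ducts and vessels, and contact between islet cells.

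Within the coding sequence (CDS), many peaks of the Eph receptors and plexins lay in a single long internal exon, while those of the semaphorins lay in the last exon. This arrangement was noticed after the values had been seen and was given no test. A peak that recurs over stages is counted in each of them. Over the 4 stages, 24 of 40 CDS peaks on Eph receptors (60.0%) had their midpoint in the longest internal exon, in 7 of the 10 receptors with a CDS peak, and that exon held 19.6% of their coding bases. By stage these were 9 of 12 in hPSC, 7 of 11 in DE and 6 of 10 in PP, but 2 of 7 in hILO. Of the 42 CDS peaks on plexins, 30 (71.4%) were in the longest internal exon, in 5 of the 7 plexins with a CDS peak, and that exon held 14.3% of the coding bases. By stage these were 6 of 12 in hPSC, 10 of 10 in DE, 8 of 13 in PP and 6 of 7 in hILO. Over all protein-coding genes the share was 29.5%, with 19.5% of the coding bases. On semaphorins 0 of 48 CDS peaks were in the longest internal exon and 46 (95.8%) were in the last exon, in all 13 semaphorins with a CDS peak, where the last exon held 25.7% of the coding bases. The last exon held 31.9% of the CDS peaks of all protein-coding genes and 18.3% of their coding bases. In the second batch the same 3 shares were 34.5% for Eph receptors, 52.8% for plexins and 62.7% for semaphorins, beside 28.5% (longest internal exon) and 28.2% (last exon) over all genes.

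The sequences of these exons are shown because some peaks recurred at matching places in related receptors. In most Eph receptors the exon is exon 3, which encodes the ephrin-binding domain. In the plexins of class A it is exon 2, which encodes much of the semaphorin-binding sema domain. A window of 33 bases under the peak of PLXNA1, the class A plexin covered in all 6 lists, was compared with the best ungapped match in the coding sequence of the other plexins. Coordinates are on GRCh38, sequences are read 5′ to 3′ on the transcript strand, and capitals mark GGAC, the core of the consensus that the m6A methyltransferase complex prefers.
PLXNA1, chr3:126989005-126989037, plus strand: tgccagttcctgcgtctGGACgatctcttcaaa
PLXNA3, chrX:154460541-154460573, plus strand: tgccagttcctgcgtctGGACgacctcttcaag
PLXNA2, chr1:208217482-208217514, minus strand: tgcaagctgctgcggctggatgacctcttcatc
PLXNA4, chr7:132508250-132508282, minus strand: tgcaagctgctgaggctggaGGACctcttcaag
PLXNA3 shared 31 of the 33 bases, the GGAC included, and a peak covered the window in 5 lists, all but hILO. PLXNA2 shared 25 bases, had no GGAC in the window and was covered in 3 lists (DE, WT PP and A5-KO PP). PLXNA4 also shared 25 bases and held a GGAC, and no list had a peak over it. The class B, C and D plexins matched in at most 19 of the 33 bases, while the second best place in a plexin reached 20, so they are not set beside these.

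For EPHA2, the window covered in all 6 lists was compared in the same way with the other Eph receptors.
EPHA2, chr1:16148808-16148840, minus strand: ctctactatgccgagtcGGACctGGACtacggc
EPHA8, chr1:22576427-22576459, plus strand: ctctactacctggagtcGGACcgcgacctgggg
EPHA8 shared 23 of 33 bases with EPHA2, including the first GGAC, and was covered in hPSC and DE. The other Eph receptors matched in at most 21 bases, close to the next best place in their own coding sequence, so their windows are not set side by side.

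In EPHA2, PLXNA1, PLXNB1 and PLXNB2 a peak had its midpoint in the exon in all 6 lists. The other Eph receptors and plexins lacked such a peak in some or all lists. The values that follow are those of overlapping peaks. Over the EPHA2 window printed above, in exon 3 (chr1:16148378-16149047, 670 nt), the peak had 1.73 ± 0.13 in hPSC and 1.61 ± 0.06 in DE, then 1.33 ± 0.07 in PP and 1.09 ± 0.13 in hILO, and 2.88 ± 0.09 for WT PP and 3.44 ± 0.16 for A5-KO PP. Over the PLXNA1 window, in exon 2 (chr3:126988521-126989787, 1267 nt), it had 1.61 ± 0.09, 1.45 ± 0.17, 0.92 ± 0.06, 0.79 ± 0.04, 3.42 ± 0.03 and 4.07 ± 0.05 in the same order. The values of the second batch were higher for both, and each list was normalised on its own. PLXNB1 exon 3, in a class B plexin that binds SEMA4D, had overlapping peaks of 1.63 ± 0.10, 1.55 ± 0.17, 0.77 ± 0.06, 0.79 ± 0.03, 3.21 ± 0.09 and 1.33 ± 0.07. A second peak in that exon had 0.91 from 1 input read in WT PP and 4.09 from 709 in A5-KO PP. PLXNB2 exon 3 held peaks in all 6 lists as well, and those over its middle part had 1.17 ± 0.10 in hPSC and 1.26 ± 0.06 in DE, then 1.53 ± 0.23 in PP and 1.21 ± 0.14 in hILO. In A5-KO PP that peak had 5.82 ± 0.19 from 58 input reads, while the WT PP peak in the exon had 0 input reads.

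EPHB6, a kinase-inactive Eph receptor, had peaks in its long exon 7 (784 nt) in every list but PP and hILO, where the gene had none. The values there were 1.34 ± 0.03 in hPSC, from 2908 input reads, 1.11 ± 0.02 in DE, from 5263 input reads, 4.21 ± 0.07 for WT PP and 4.57 ± 0.12 for A5-KO PP. These hPSC and DE peaks lie apart in the exon. The stretch printed here is common to the DE peak and a second hPSC peak of 1.25, from 418 input reads, and holds 3 GGAC.
EPHB6, chr7:142864335-142864459, plus strand: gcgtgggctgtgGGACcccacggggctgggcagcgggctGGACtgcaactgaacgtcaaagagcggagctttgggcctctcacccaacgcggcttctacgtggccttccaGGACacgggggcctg

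For the semaphorins, the last coding exon encodes the C-terminal end, which holds the cytoplasmic tail in the transmembrane classes 4 to 6. The stretches covered in all 6 lists are given for a secreted semaphorin and for semaphorins of classes 4 and 6.
SEMA3D, chr7:84999548-84999672, minus strand: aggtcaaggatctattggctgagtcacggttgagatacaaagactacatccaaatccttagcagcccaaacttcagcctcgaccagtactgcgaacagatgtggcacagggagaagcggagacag
SEMA4D, chr9:89378714-89378838, minus strand: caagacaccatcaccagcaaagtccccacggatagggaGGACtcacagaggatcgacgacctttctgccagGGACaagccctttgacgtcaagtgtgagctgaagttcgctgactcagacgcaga
SEMA6A, chr5:116446735-116446859, minus strand: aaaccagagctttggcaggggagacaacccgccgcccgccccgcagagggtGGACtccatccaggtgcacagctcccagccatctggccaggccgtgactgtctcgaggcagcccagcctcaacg
The SEMA3D stretch holds no GGAC. Its peak was the only SEMA3D peak in hPSC, DE and PP, and the enrichment by list was 2.98 ± 0.28 in hPSC and 3.12 ± 0.17 in DE, then 1.22 ± 0.09 in PP and 0.91 ± 0.08 in hILO, and 4.80 ± 0.10 for WT PP and 1.74 ± 0.15 for A5-KO PP. The difference between hPSC and DE was within the counting error, and both lay well above the values of this peak in PP and hILO. The second SEMA3D peak of hILO had 2.44 ± 0.08 from 370 input reads, and that of A5-KO PP 4.97 ± 0.13 from 165. For SEMA6A the peak over the stretch had 1.24 ± 0.07 in hPSC, 1.66 ± 0.63 in DE from 6 input reads, 1.13 ± 0.30 in PP, 1.00 ± 0.06 in hILO, and 3.92 ± 0.23 for WT PP and 3.70 ± 0.13 for A5-KO PP. For SEMA4D the peak over the stretch had 1.34 ± 0.29 in hPSC and 0.89 ± 0.22 in DE, then 1.26 ± 0.31 in PP and 1.81 ± 0.21 in hILO, and 2.63 ± 0.04 for WT PP, and it rested on 1 input read for A5-KO PP.

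Depth and the labels were checked over the whole lists. Input reads inside peaks ranged from 6987612 in PP to 28463998 in hILO, and the median member peak had 44 input reads in hPSC and 106 in DE, then 88 in PP and 357.5 in hILO, and 107 for WT PP and 37 for A5-KO PP. In the second batch 24 member peaks (11.3%) of WT PP and 52 (19.0%) of A5-KO PP had 0 input reads, beside 9.84% and 20.0% of all peaks on protein-coding genes, and the log2 enrichment given to them ran from 0.64 to 11.96 and from 0.59 to 12.94. Every marker gene chosen for hPSC (4), DE (5), PP (5) and hILO (5) had a peak in the list of that label, with all 5 PP markers also in WT PP and A5-KO PP. Markers of other cell types were present as well: 4, 5, 4, 5, 4 and 6 of 6 mesenchymal markers, 2, 3, 1, 3, 3 and 3 of 6 neural markers, 2, 2, 0, 0, 1 and 5 of 5 endothelial markers and 0, 1, 0, 4, 3 and 2 of 4 hepatic markers had a peak in hPSC, DE, PP, hILO, WT PP and A5-KO PP. The part of these cells in the results below was not tested. Peaks on ALKBH5 itself had 289 input and 836 IP reads in WT PP, and 1 input and 592 IP reads in A5-KO PP.

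Most guidance genes carried a peak in most populations. A peak was present on 55 of 68 genes in hPSC (80.9%, 70.0 to 88.5) and 49 in DE (72.1%, 60.4 to 81.3), then 37 in PP (54.4%, 42.7 to 65.7) and 45 in hILO (66.2%, 54.3 to 76.3). In the second batch it was 56 in WT PP (82.4%, 71.6 to 89.6) and 61 in A5-KO PP (89.7%, 80.2 to 94.9). Of all protein-coding genes, 60.2% had a peak in hPSC and 57.0% in DE, then 52.2% in PP and 57.7% in hILO, and 62.8% for WT PP and 69.7% for A5-KO PP. With p below 1e-10 hILO had 40 guidance genes with a peak and hPSC 29, so the order of these stages depended on the threshold. With the peaks as deposited, the interval for the guidance genes lay above the background in hPSC, DE, WT PP and A5-KO PP and included it in PP and hILO. The lists hold no input reads for a gene without a peak, so absence of transcript, of m6A and of depth cannot be told apart, and in bulk samples neither can fewer cells of a type and less RNA per cell.

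**Figure D1:**
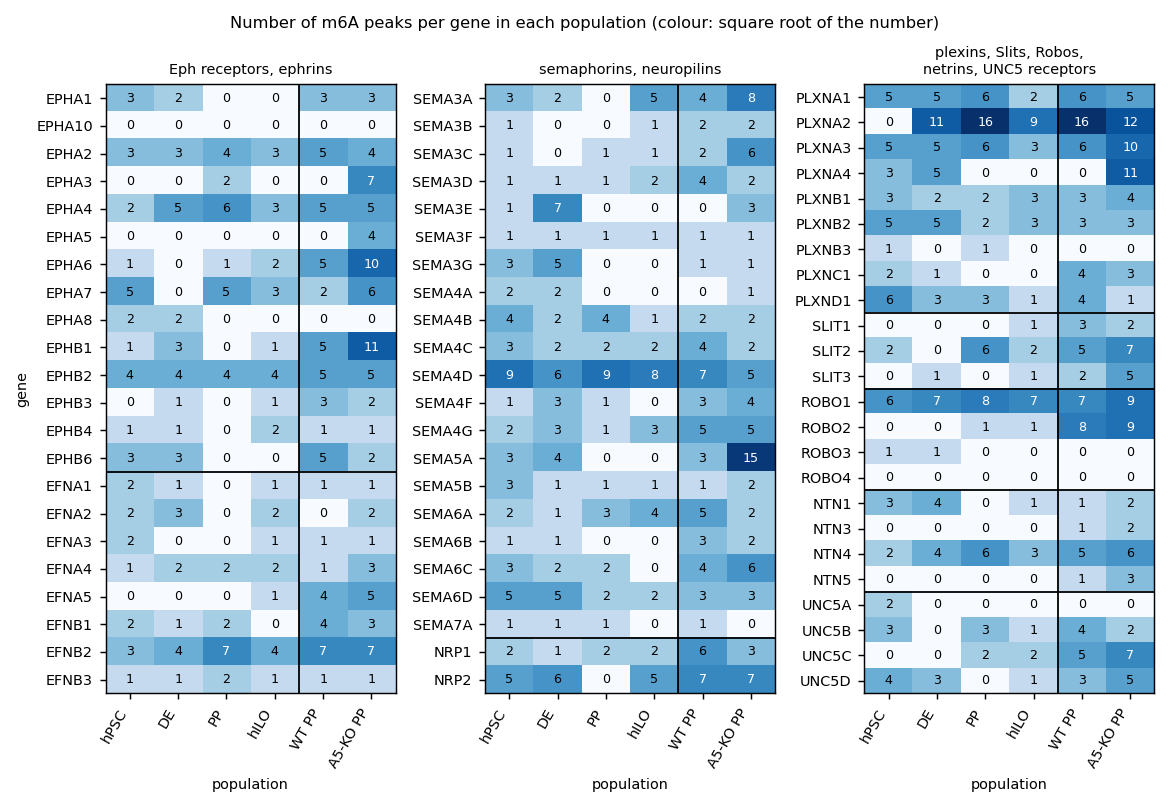
Number of m6A peaks on each of the 68 guidance genes (rows, by family) in each of the 6 lists (columns), as a colour scale from 0 upward. The most peaks on a gene in a list were 16, on PLXNA2 in PP and in WT PP, and EPHA10 and ROBO4 had 0 in all lists.

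The set of 23 genes with a peak in all 4 stages (33.8%, 23.7 to 45.7, beside 41.2% of all protein-coding genes) also had a peak in both lists of the second batch. It held the receptors EPHA2, EPHA4, EPHB2, PLXNA1, PLXNA3, PLXNB1, PLXNB2, PLXND1, ROBO1 and NRP1, and the ligands EFNA4, EFNB2, EFNB3, SEMA3D, SEMA3F, SEMA4B, SEMA4C, SEMA4D, SEMA4G, SEMA5B, SEMA6A, SEMA6D and NTN4. A further 12 genes had a peak in hPSC or DE and none in PP or hILO (17.6%, 10.4 to 28.4, beside 8.90%), namely EPHA1, EPHA8, EPHB6, PLXNA4, PLXNC1, ROBO3, SEMA3E, SEMA3G, SEMA4A, SEMA5A, SEMA6B and UNC5A. The reverse, no peak in hPSC or DE and one in PP or hILO, held for 5 genes (7.35%, 3.18 to 16.1, beside 6.49%), which were EFNA5, EPHA3, ROBO2, SLIT1 and UNC5C. Another 12 genes had a peak before PP and in hILO but not in PP (17.6%, beside 7.16%): EFNA1, EFNA2, EFNA3, EPHB1, EPHB3, EPHB4, NRP2, NTN1, SEMA3A, SEMA3B, SLIT3 and UNC5D. Both groups of genes that had a peak before PP and none in PP thus took a larger share of the guidance genes than of all genes, by more than the counting interval. PP was also the list with the fewest input reads in peaks.

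Among the receptors, 10 of 14 Eph receptors had a peak in hPSC and 9 in DE, then 6 in PP and 8 in hILO, and 10 for WT PP and 12 for A5-KO PP. EPHA2, which binds the A ephrins, was one of the steadiest, with 3, 3, 4, 3, 5 and 4 peaks. Its highest log2 enrichment within the first batch lay between 1.85 ± 0.03 in DE and 2.24 ± 0.22 in PP. EPHA4, which binds ephrins of both classes, had 2 peaks in hPSC from 7 input reads and 5, 6 and 3 peaks in DE, PP and hILO from 726, 605 and 881. EPHB2, a receptor of B ephrins, had 4 peaks in each of the 4 stages and 5 in each list of the second batch. Its highest log2 enrichment was 2.63 ± 0.22 in hPSC and 2.14 ± 0.11 in DE, then 1.54 ± 0.23 in PP and 2.03 ± 0.20 in hILO. EPHA8 peaks were confined to hPSC and DE (2 each, 127 and 113 input reads), whereas EPHA5 had peaks only in A5-KO PP (4, from 120 input reads).

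Among the ephrins, 7 of 8 had a peak in hPSC and 6 in DE, then 4 in PP and 7 in hILO, and 7 for WT PP and all 8 for A5-KO PP. EFNB3 had a single peak, in its 3′UTR, in each list but PP, where there were 2. It had 1.48 ± 0.07 in hPSC, 1.54 ± 0.06 in DE, 0.87 ± 0.02 in hILO, and 4.64 ± 0.05 for WT PP and 4.98 ± 0.06 for A5-KO PP, and hILO, the lowest, had the most input reads, 5537. EFNA4, a GPI-anchored ephrin, was covered thinly, with 3, 39, 87, 62, 3 and 74 input reads, and its highest value in the first batch lay between 2.21 ± 0.79 and 2.59 ± 0.30, without a difference beyond the counting error. EFNA2 had 4259 input reads in its 2 hILO peaks, against 17 in hPSC and 76 in DE and no peak in PP, and its highest enrichment in hILO was 1.51 ± 0.04.

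All 20 semaphorins had a peak in hPSC and 18 in DE, then 13 in PP and 12 in hILO, and 18 for WT PP and 19 for A5-KO PP. SEMA3E, the ligand of PLXND1, had 1 peak with 14 input reads in hPSC, 7 peaks with 3043 in DE, none in PP, hILO and WT PP, and 3 with 249 in A5-KO PP. Its peaks were thus almost entirely a feature of DE within the first batch. SEMA4D, a membrane-bound ligand of PLXNB1, had 9, 6, 9 and 8 peaks through the 4 stages, 32 in all, and 7 and 5 in the second batch. SEMA4G had one peak of 18911 input reads in the 5′UTR in DE, with a log2 enrichment of 1.24, and 41 to 1422 input reads in all its peaks of the other 3 stages. SEMA3F, a class 3 ligand that acts through NRP2, had a single peak in every list, in the 3′UTR, at 1.68 ± 0.05, 1.20 ± 0.28, 1.25 ± 0.28, 1.16 ± 0.08, 4.44 ± 0.05 and 2.02 ± 0.26. SEMA4B, SEMA4C, SEMA5B and SEMA6D had between 1 and 5 peaks in each list, and their highest log2 enrichment in the first batch ranged from 0.78 ± 0.08 (SEMA4C in hILO) to 2.82 ± 0.17 (SEMA6D in DE).

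Of the 9 plexins, 8 had a peak in hPSC and 8 in DE, then 7 in PP and 6 in hILO, and 7 for WT PP and 8 for A5-KO PP. PLXNA2, a receptor for class 3 and class 6 semaphorins, stood out by number. It had no peak in hPSC, then 11 in DE, 16 in PP and 9 in hILO, 36 in all, with 5465, 2784 and 2339 input reads, and 16 and 12 peaks in WT PP and A5-KO PP. Its relative PLXNA4 had its peaks early in the first batch, with 3 peaks in hPSC, 5 in DE and none in PP, hILO and WT PP, and 11 in A5-KO PP. PLXNA1 had 5, 5, 6 and 2 peaks and PLXNA3 5, 5, 6 and 3 peaks through the stages. PLXND1 had 6, 3, 3, 1, 4 and 1 peaks, and its hILO value of 0.87 ± 0.11 lay below the highest in hPSC, 1.89 ± 0.08. The 2 PLXNB3 peaks, in hPSC and PP, named a second gene and lay outside the PLXNB3 exons of the annotation used. The co-receptor NRP1 had a 3′UTR peak in every list, at 1.61 ± 0.23 in hPSC and 1.78 ± 0.18 in DE, then 0.82 ± 0.17 in PP, 1.34 ± 0.07 in hILO and 1.09 ± 0.48 for WT PP, and without input reads in A5-KO PP. NRP2 had 5, 6 and 5 peaks in hPSC, DE and hILO and none in PP, but 7 in each list of the second batch.

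Slit peaks were found on 1 gene each in hPSC, DE and PP and on all 3 in the other lists. SLIT1 was the single gene with peaks in 1 stage only and at least 50 input reads there. Its hILO peak had 467 input reads and a log2 enrichment of 1.60 ± 0.08, and named a second gene besides. SLIT2 had 6 peaks with 1027 input reads in PP and 2 with 1097 in hILO. ROBO1, the widely expressed Slit receptor, had 6, 7, 8, 7, 7 and 9 peaks, 28 over the 4 stages, while ROBO2 had a peak from PP onward (518 input reads, 2.88 ± 0.07 in PP, and 211, 2.41 ± 0.11 in hILO). NTN4, a netrin of basement membranes, had peaks in all lists, with 56 input reads in hPSC and 10053 in DE, then 556 in PP and 616 in hILO, and its deepest peak in DE had 7755 input reads and 1.93. NTN3 and NTN5 had peaks in the second batch only. Of the UNC5 receptors, 3 had a peak in hPSC and 1 in DE, then 2 in PP and 3 in each of hILO, WT PP and A5-KO PP, with UNC5A in hPSC alone (35 input reads).

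Member peaks were placed on the longest coding isoform by their midpoint, which was possible for all but 149 of them. In the first batch they lay in the 3′UTR more often than the peaks of protein-coding genes at large. The 3′UTR share was 52.5% (43.7 to 61.1) in hPSC and 60.8% (52.2 to 68.7) in DE, then 52.3% (43.0 to 61.3) in PP and 55.7% (45.8 to 65.2) in hILO, beside 37.9%, 42.3%, 35.8% and 39.9% of all peaks. In WT PP and A5-KO PP it was 43.9% (37.0 to 51.0) and 33.6% (27.8 to 40.1), beside 41.6% and 35.1%. The difference from all peaks was thus seen with each list of the first batch and within the counting interval in the second. The 3′UTR made up 39.6% to 42.7% of isoform length in members with placed peaks and 46.6% to 47.5% over all genes. Its median length in the first batch ran from 1488 to 1738 nt in members and from 1356 to 1497 nt over all genes. In the second batch it was 1413 beside 1416 nt in WT PP and 1509 beside 1372 nt in A5-KO PP. The part of these lengths in the 3′UTR shares was not tested. Peaks of 1 gene share a transcript, so these intervals are too narrow as intervals over genes.

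The families differed in where the peaks fell. Of the placed ephrin peaks 10 of 13 in hPSC, 11 of 12 in DE, 10 of 13 in PP and 10 of 12 in hILO were in the 3′UTR. For the Robos the CDS held 4 of 5, 4 of 5, 7 of 7 and 7 of 7 peaks in the same stages. Within 200 nt of the stop codon lay 27.0%, 20.8%, 16.2%, 19.6%, 15.3% and 11.2% of member peaks, beside 21.2%, 22.5%, 20.6%, 22.2%, 19.5% and 18.7% of all peaks. In A5-KO PP the interval of the member share, 7.71 to 16.0, lay below the share of all peaks. The following 3′UTR windows of 30 bases were each centred on a GGAC, in capitals, and were inside a peak in all 6 lists.
EFNA4, chr1:155069259-155069288, plus strand: ccatcccccaggaGGACtgggatttggtat
EFNB2, chr13:106492873-106492902, minus strand: agcccgtcgcgctGGACagcttacctagtc
EFNB3, chr17:7710681-7710710, plus strand: ggtGGACcgagaaGGACttttcccagtctt
NRP1, chr10:33179901-33179930, minus strand: ggccgacagacatGGACaaggagctgtgtt
SEMA3F, chr3:50188525-50188554, plus strand: gacatggatgcgaGGACcactttggagact
SEMA4B, chr15:90229304-90229333, plus strand: tggccacacgagaGGACagcgcgagctcag

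GGAC on the transcript strand, with no other motif counted in its place, was present in 63.9% (55.9 to 71.3) of member peaks in hPSC and 65.8% (57.8 to 72.9) in DE, then 59.1% (50.4 to 67.2) in PP and 62.7% (53.4 to 71.2) in hILO, and 67.1% (60.6 to 73.1) for WT PP and 60.7% (54.7 to 66.3) for A5-KO PP. Among all exonic peaks on protein-coding genes it was 58.7%, 55.7%, 51.9%, 56.9%, 57.2% and 55.4%. The interval excluded the value of all peaks in DE and WT PP and not in the other lists. Per kb of peak, members had 7.01, 6.32, 6.48, 6.23, 6.55 and 5.89 GGAC, and all peaks 5.39, 5.10, 4.83, 4.51, 4.76 and 4.61. DRACH, the wider consensus of m6A sites (D stands for A, G or T, R for A or G and H for A, C or T), which includes a part of the GGAC matches, differed less and in both directions. Members had 22.3, 22.9, 22.9, 24.98, 21.8 and 21.6 of it per kb of peak, and all peaks 22.5, 23.2, 22.9, 22.8, 21.8 and 22.4. Member peaks were also richer in GC, with a median of 56.0%, 52.0%, 52.0%, 48.5%, 54.0% and 52.0%, beside 50.3%, 46.7%, 46.9%, 46.0%, 48.0% and 47.4%. The part of GC content in the motif counts and in the enrichment was not tested.

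Fewer of the guidance peaks in DE than of all DE peaks were already present in hPSC. A peak was counted as shared with the preceding list when a peak there covered more than 50% of its exonic bases. In DE, 73 of 149 member peaks (49.0%, 41.1 to 56.9) were shared with hPSC, beside 64.6% of all peaks. In PP, 67 of 128 (52.3%, 43.7 to 60.8) were shared with DE, beside 56.9%, and in hILO 54 of 110 (49.1%, 39.9 to 58.3) were shared with PP, beside 45.5%. Only the DE share had an interval that excluded the value of all peaks. With at least 50 input reads in the later list, it was 50.5% in DE beside 67.8%. Of the 76 guidance peaks new in DE, 13 were on genes without any peak in hPSC, among them 11 on PLXNA2 (17.1%, 10.3 to 27.1, beside 16.5% of all new peaks on protein-coding genes). In PP 22 of 61 new peaks (36.1%, beside 17.5%) and in hILO 24 of 56 (42.9%, beside 23.0%) were on genes without a peak in the preceding list, and several of these peaks share a gene.

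At shared peaks, the median difference in enrichment between consecutive stages was well under 1 on the log2 scale. Peaks called separately in 2 lists can differ in width, so a difference compares overlapping and not identical stretches. From hPSC to DE the median difference was −0.08 (−0.19 to 0.08) over 73 shared member peaks, beside −0.11 over all genes. On the log2 ratio of the reads the medians were 0.18 and −0.03, so the sign for the members depended on the scale. Among the 29 member pairs with 50 or more input reads in the earlier and the later list, 2 were higher by at least 1 on the log2 scale and 1 was lower by as much, beside 2.20% and 3.90% of all such peaks. Among these pairs the largest difference in either direction on the deposited scale was on a semaphorin. A 3′UTR peak of SEMA3A, a secreted repellent, went from 1.52 to 3.39 (difference 1.87 ± 0.16), and its 5′UTR peak differed by −0.91 ± 0.22. SEMA4A had a 3′UTR peak of 2.50 in hPSC that overlapped 2 peaks of 1.00 and 1.89 in DE, with differences of −1.50 ± 0.12 and −0.61 ± 0.10. PLXNA1 (3′UTR, 1.10 ± 0.27) and PLXNB2 (CDS, 0.53 ± 0.15) were higher in DE. On the log2 ratio of the reads the PLXNA1 difference, 1.41, exceeded that of the SEMA3A 3′UTR peak, 1.26.

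From DE to PP the median difference was −0.31 (−0.48 to −0.13) over 67 shared member peaks, beside −0.12 over all genes. On the log2 ratio of the reads, without the model of the peak caller, the member median was −0.01, so the lower value in PP was not seen on that scale. Among 32 pairs with 50 or more input reads in each list, 1 was higher by at least 1 and 2 were lower, beside 4.21% and 6.33% of all. Among these pairs ROBO1 had the largest positive difference, near its last coding exons (chr3:78598914-78600198 in PP), from 1.85 to 3.59 (1.73 ± 0.16), where the DE peak was 325 nt of exon and the PP peak 100 nt. The same DE peak also overlapped a second PP peak of 1.53, with a difference of −0.32 ± 0.14. The largest negative difference among them was that of the last-exon peak of SEMA3D described above, −1.90 ± 0.20. NTN4 (3′UTR, −1.22 ± 0.17) and NRP1 (3′UTR, −0.96 ± 0.25) were also lower in PP, while PLXNA2 (3′UTR, 0.83 ± 0.16) and another NTN4 peak (0.68 ± 0.11) were higher. The PLXNA2 peak of DE, at 1.47, overlapped a second PP peak as well, at 1.16, with a difference of −0.31 ± 0.23.

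From PP to hILO the median difference was −0.05 (−0.16 to 0.14) over 54 shared member peaks, beside −0.12. Of 34 pairs with as many input reads, 3 were higher by at least 1 and 4 were lower, beside 3.06% and 9.44% of all. Among these pairs the 3 with the largest positive difference were all in the CDS, ROBO1 with 1.30 ± 0.10 and 1.05 ± 0.23 and SEMA4D with 1.12 ± 0.22. The 3 with the largest negative difference were all in the 3′UTR, PLXNA2 with −1.51 ± 0.15 (2.30 to 0.79), EPHA7 with −1.38 ± 0.21 and EPHA4 with −1.29 ± 0.22. On the log2 ratio of the reads these 3 negative differences were −0.98, −0.88 and −0.68, all smaller than 1. The positive ones were 1.81 and 1.20 for ROBO1 and 0.89 for SEMA4D on that scale. The member peak with the highest enrichment at 50 or more input reads was on EFNB2 in hPSC (2.67 ± 0.11), on SEMA3A in DE (3.39 ± 0.15) and on ROBO1 in both PP (3.59 ± 0.13) and hILO (3.05 ± 0.08).

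**Figure D2:**
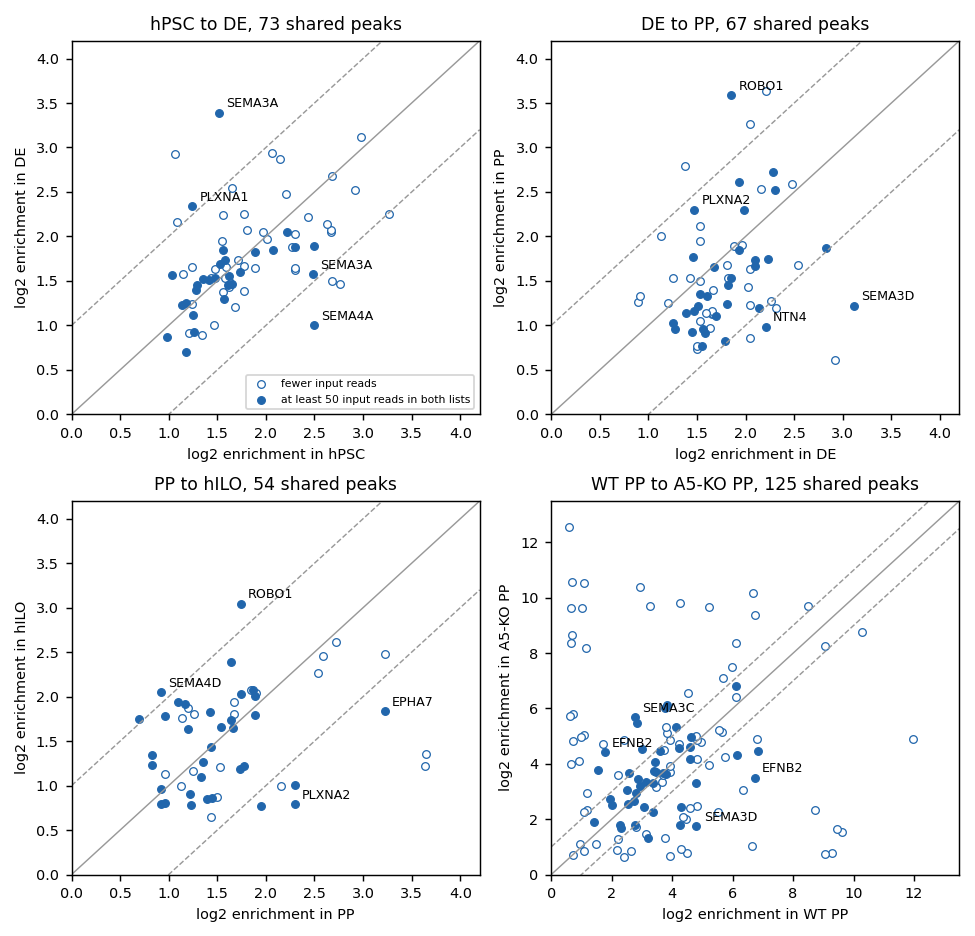
Log2 enrichment of shared member peaks in the earlier list (x axis) and the later list (y axis) for hPSC to DE, DE to PP, PP to hILO and WT PP to A5-KO PP, 1 point per pair. The stage panels lie close to the diagonal (median differences −0.08, −0.31 and −0.05), while the points of the ALKBH5 panel spread widely about it (median 0.17).

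The comparison of WT PP with A5-KO PP asks how loss of an m6A demethylase changes the m6A peaks of progenitors. Of 273 member peaks in A5-KO PP, 125 (45.8%, 40.0 to 51.7) were shared with WT PP, beside 46.7% of all peaks. A peak was present on 55 genes in both lists (80.9%, beside 57.7% of all protein-coding genes), on SEMA7A in WT PP alone (1.47%, 0.26 to 7.87, beside 5.09%), and on EFNA2, EPHA3, EPHA5, PLXNA4, SEMA3E and SEMA4A in A5-KO PP alone (8.82%, 4.11 to 17.9, beside 12.0%). At the 125 shared peaks the median difference, A5-KO PP less WT PP, was 0.17 (−0.16 to 0.50), beside 0.24 over all genes. Of 44 pairs with 50 or more input reads in the WT PP and the A5-KO PP list, 9 were higher by at least 1 in A5-KO PP and 9 were lower, beside 22.7% and 21.4% of all such peaks. The members therefore differed in both directions in equal number, at shares close to the background. On the ratio of the reads the median was −0.17, of the opposite sign.

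Among the 44 pairs, the largest differences in either direction included EFNB2, the transmembrane ligand of EPHB4 and EPHB2. In its distal 3′UTR (chr13:106490845-106491444 in WT PP) the enrichment was 6.73 in WT PP from 2126 input reads and 3.50 in A5-KO PP from 298, a difference of −3.23 ± 0.11. The same WT PP peak also spanned a second A5-KO PP peak, at 9.39 with 0 input and 46 IP reads. Nearer the stop codon (chr13:106491770-106492019) the enrichment was 1.77 in WT PP from 954 input reads and 4.42 in A5-KO PP from 810, a difference of 2.65 ± 0.10. Both pairs with these differences lay in the same 3′UTR, less than 1 kb apart, and differed in opposite directions by many times the counting error. The peak over the stop codon region, which holds the EFNB2 window printed above and 11 GGAC, had 2.49 ± 0.07 for WT PP and 3.06 ± 0.12 for A5-KO PP. In the first batch the peak at this place had 2.67 ± 0.11 in hPSC, 1.87 ± 0.03 in PP and 2.08 ± 0.05 in hILO, and DE had 2 smaller peaks there, at 2.07 ± 0.38 and 2.05 ± 0.34, from 17 and 22 input reads. The other large differences were lower values in A5-KO PP for SEMA3D (last exon, −3.07 ± 0.18) and PLXNB2 (3′UTR, −2.47 ± 0.27) and higher values for SEMA3C (CDS, 2.91 ± 0.23) and EPHB1 (off the longest coding isoform, 2.64 ± 0.11). The highest member peak with at least 50 input reads was on EFNB2 in WT PP (6.84 ± 0.03, CDS) and on SEMA3E in A5-KO PP (7.21 ± 0.19, CDS). The A5-KO cells were 1 edited line, so clone and genotype cannot be told apart.

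**Figure D3:**
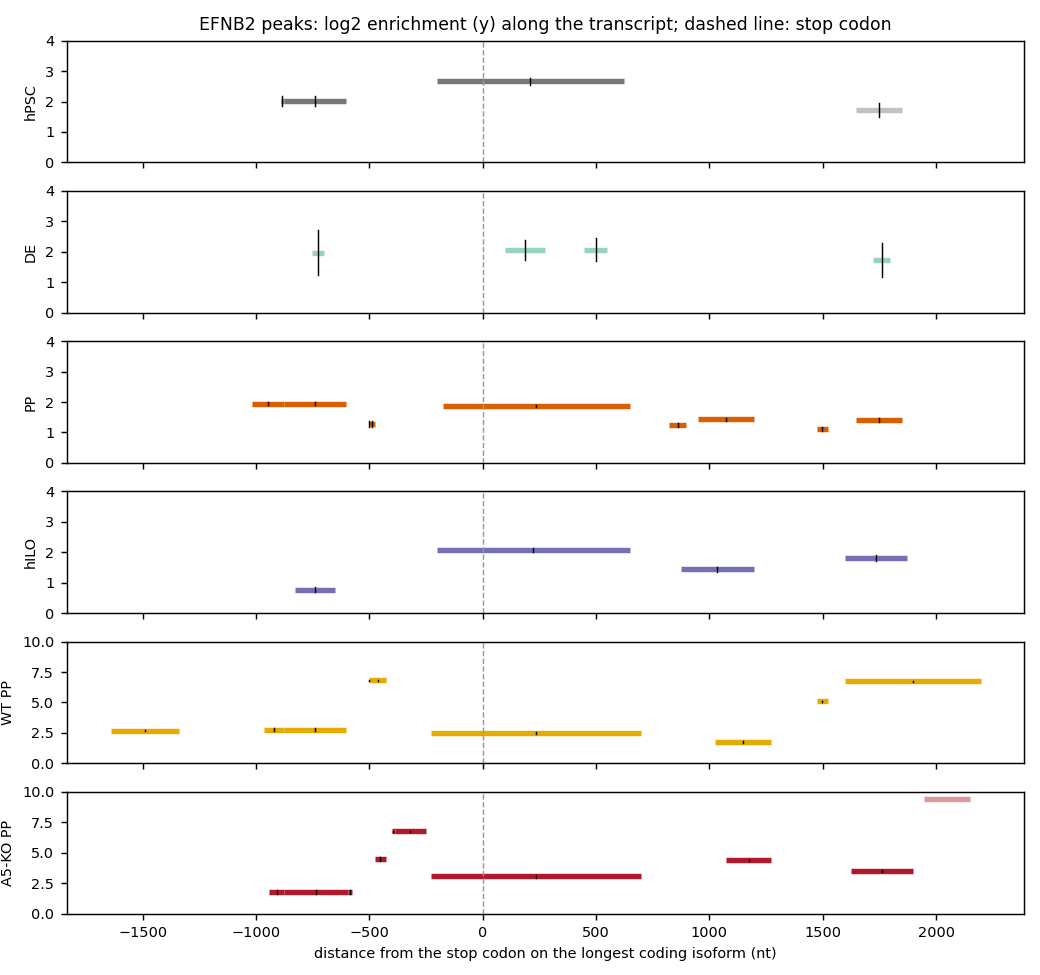
Peaks on the EFNB2 transcript in the 6 lists (rows, each in its own colour), by distance in nt from the stop codon along the longest coding isoform (x axis) and by log2 enrichment (y axis). The peak just after the stop codon recurs in all lists, and the distal 3′UTR peak is at 6.73 for WT PP and 3.50 for A5-KO PP. A second distal peak of A5-KO PP, without input reads, is at 9.39.

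PP and WT PP carry the same label of progenitor but differ in antibody, RNA, library kit and batch, so their values stand side by side only. Of the PP member peaks 80 of 128 (62.5%, 53.9 to 70.4) were covered in WT PP, beside 57.7% of all peaks, and of the WT PP member peaks 48 of 213 (22.5%, 17.4 to 28.6) were covered in PP, beside 22.4%. Both lists had a peak on 35 guidance genes (51.5%, beside 47.6% of all protein-coding genes). WT PP alone had one on 21 more (30.9%, 21.2 to 42.6, beside 15.2%), EPHB3, EPHB4, NRP2 and SEMA3A among them, and PP alone on EPHA3 and PLXNB3 (2.94%, beside 4.57%). The log2 enrichment of the 48 shared WT PP peaks exceeded that in PP by a median of 2.50, and over all genes by 2.07. On the ratio of the reads these medians were 0.22 and 0.0022, so the size of this difference depended on the scale. Of the genes with a peak before PP and in hILO but not in PP, all but EFNA2 had a peak in WT PP. Some genes with a peak in hPSC or DE and none in PP or hILO also had one in WT PP. These were EPHA1, EPHB6, PLXNC1, SEMA3G, SEMA5A and SEMA6B, and the others of that group had none. For the genes with a WT PP peak, the absence from PP was thus not seen in the other list of progenitors.

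A list of 52 genes that act with these families but lie outside them, such as DCC, the FLRT ligands and the collapsin response mediators, was looked at beside them. A peak was present on 42 (80.8%) in hPSC and 37 (71.2%) in DE, then 38 (73.1%) in PP, 41 (78.8%) in hILO and 46 (88.5%) in each of WT PP and A5-KO PP, and 29 of the 52 had a peak in all 6 lists. In the same order the shares of all protein-coding genes were 60.2%, 57.0%, 52.2%, 57.7%, 62.8% and 69.7%. In PP the share of 73.1% stood beside 54.4% of the ligands and receptors. The netrin receptor DCC had no peak in hPSC and DE.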

How the data were processed

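The authors prepared 2 IP and 2 input libraries for each of 6 populations, used fastp for trimming and HISAT2 for alignment to GRCh38 with at most 1 alignment reported for a read, called peaks by exomePeak2 on all libraries of a population together, and used HOMER for motifs. For each peak the authors deposited IP and input read counts pooled over libraries, a log2 enrichment of IP over input and p-values, raw and adjusted. The counts were taken as sums over libraries, which the sources used here do not state. The log2 enrichment differed from the ratio of the counts by an amount that varied with peak and list, so that ratio was computed as well. The part of GC content in this was not tested. The methods give IP/input of at least 1.5 and p below 1e-05.

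Peaks were cut to the exons of their gene in GENCODE 44 and placed by midpoint on the longest coding isoform. Of the 1021 member peaks 1018 lay in exons, and motifs and GC content were taken from these alone. A peak was shared when a peak of the other list covered more than 50% of its exonic bases. Differences of at least 1 in log2 were counted at shared peaks with 50 or more input reads in each of the lists compared. Counting errors used 0.5 added to each count, shares have Wilson intervals and medians intervals from binomial order statistics, all for counting only, and PCR copies are not independent molecules. With pooled counts no test between populations and no spread between libraries could be had, and depth is given as input reads in peaks. Values are named for members with a peak in all 6 lists or in a single stage with at least 50 input reads, for the 3 largest differences in each direction per comparison, for the highest peak per list and for the members with most peaks. Other members are given by counts, and some by values chosen after these were seen. Members, gene lists and markers were chosen with earlier results of these data known. The overlap code was tested on simulated data. Python 3.11.15, pandas 2.3.3, numpy 2.4.6, scipy 1.17.1 and pysam 0.24.0 were used.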

Additional observations from a re-analysis of the deposited data

How the results depend on the processing

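Of 69 alternatives for 25 results, 43 left the value within its interval or within 1.5 times the count and 26 moved it beyond that. With log2 ratios of the counts in place of the deposited enrichment (pseudocount 1 and 5), the median difference at shared member peaks went from −0.08 to 0.18 and 0.15 for hPSC to DE, from −0.31 to −0.0092 and 0.025 for DE to PP, and from 0.17 to −0.17 and −0.19 for WT PP to A5-KO PP. For PP to hILO it went from −0.05 to 0.0073 and −0.011, and to 0.024 with 50 or more input reads in each list. With p below 1e-10 the genes with a peak were 29 (hPSC), 31 (DE), 19 (PP), 40 (hILO), 38 (WT PP) and 40 (A5-KO PP), and with IP/input of at least 3 they were 23 (PP) and 28 (hILO). With any overlap the inherited share was 59.7% in DE and 60.9% in PP, with reciprocal overlap it was 35.6%, 33.6% and 36.4% in DE, PP and hILO, and with IP/input of at least 2 in both lists it was 38.5% in hILO. Counting any overlap with the CDS gave a CDS share of 43.0% in DE and 54.9% in WT PP. In the central 100 nt GGAC was present in 46.9%, 40.9%, 42.5%, 40.9%, 44.6% and 45.6% of member peaks in hPSC, DE, PP, hILO, WT PP and A5-KO PP, beside 39.4%, 37.1%, 35.1%, 35.4%, 35.8% and 35.3% of all peaks. The minimum of 50 input reads in the later list for inherited peaks was added after seeing the data. No paired analysis was possible because each list gives pooled reads, and for the same reason no replicate could be left out. The median member peak had 44 input reads in hPSC and 37 in A5-KO PP, and PP had the fewest input reads in peaks, 6987612.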
